A study of Rattus norvegicus with 8 samples.

Results

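The genes described here handle serine, glycine, proline and the folate-bound one-carbon units that these amino acids supply. They are Slc7a10, Slc6a9, Prodh, Cbs, Gldc, Amt, Phgdh, Psat1, Shmt2 and Aldh1l1, and every probe set annotated to exactly 1 of these 10 genes was taken. That gave 15 probe sets, 12 on the array type named chip A in the labels and 3 on chip B, of 31142 tested probe sets and 13810 named genes in all. The group was chosen by the high ratios of Slc7a10, Prodh, Cbs and Aldh1l1 in these same arrays, so the values of the 10 genes are given as a description, with no test. The samples were cells sorted by flow cytometry as A2B5/OTMP+ from the brain of rats at postnatal day 7. The labels call them oligodendrocytes, and the series title calls them perineuronal, that is, lying against neuronal cell bodies. A2B5 is a ganglioside epitope of glial precursors and OTMP is the other marker of the sort. RNA of 4 biological replicates was read on each of the 2 array types, 8 samples in all, with 1 cell population and no control group. The labels name no treatment and no genetic change. No strain, sex or number of animals is given in the sources used here.

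Serine is made from a glycolytic intermediate in a short pathway that Phgdh opens and Psat1 continues. The hydroxymethyltransferases, Shmt2 in mitochondria among them, turn serine into glycine and pass a carbon to folate, and the glycine cleavage system, with its subunits Gldc and Amt, breaks glycine down and passes on another. In brain, serine synthesis and glycine breakdown are known mainly from astrocytes and radial glia, and the D-form of serine, like glycine, is a co-agonist of NMDA receptors. Prodh opens proline breakdown in mitochondria, Cbs joins serine with homocysteine in the transsulfuration pathway, and Aldh1l1 removes one-carbon units from folate and is a widely used astrocyte marker.

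Each value is a ratio of signal in these cells to signal of the same probe set in a reference that stays unnamed, so a value above 1 means more signal than in that reference. It does not tell how abundant a transcript was, and values of different genes cannot be ranked as levels. In sorted cells as in any bulk sample, fewer cells of a type and less RNA per cell cannot be told apart. Pairwise correlations of replicates across probe sets were 0.716 to 0.792 (chip A) and 0.710 to 0.786 (chip B), and the median ratio of an array lay between 0.888 and 0.967. The labelled cell type was set against lists of markers. Of all 13810 named genes 7.7% were higher than a ratio of 1 (limma, adjusted p under 0.05), 36.1% were lower and 1.52% were called in both directions by different probe sets. Of 12 measured genes of myelin and mature oligodendrocytes 0 were higher by limma (1 at an unadjusted p under 0.05) and 6 were lower. The lower probe sets of Cldn11 (0.369, 0.388, 0.389 and 0.362) and Gjb1 (0.365, 0.389, 0.411 and 0.363) lay near bacterial controls described below. Whether such low probe sets, here or in the other lists, detected their transcripts was not tested. Other probe sets of the lower genes Cldn11 (mean log2 ratio 0.16), Ugt8 (-0.51) and Ermn (-0.91 and -0.32) did not pass. Of 10 oligodendrocyte precursor genes 2 were higher, 1 was lower and 1 was both. Astrocyte markers had 11 of 18 genes higher, 1 lower and 4 both, neuronal markers 5 of 12 higher, 1 lower and 1 both, and ependyma and choroid plexus markers 3 of 5 higher and 1 lower. Of 8 endothelial and mural genes 1 was higher and 1 lower, and of 8 microglial genes 0 were higher by limma (0 at an unadjusted p under 0.05) and 3 were lower. Markers of cell types other than the labelled one were thus among the genes above this reference, and which cells the genes below were expressed in was not tested.

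The transporter gene Slc7a10 had the highest ratio of the group. It encodes asc-1, which exchanges small neutral amino acids such as serine, in both its forms, and glycine across the membrane. Its ratios were 8.68, 7.91, 7.36 and 7.33 in replicates 1 to 4, a mean log2 ratio of 2.96 ± 0.11 (SD, n = 4), which ranked 14 from the top of 15866 probe sets on chip A. All replicates were high, and the highest was 1.18 times the lowest.

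Slc6a9 encodes GLYT1, the glycine transporter of glia. A pair of its 3 probe sets gave ratios of 3.16, 1.67, 2.697 and 3.70 for one and 2.62, 1.77, 2.84 and 3.44 for the other in replicates 1 to 4. Their mean log2 ratios were 1.43 ± 0.50 and 1.38 ± 0.40 (SD, n = 4). Both were lowest in replicate 2 and highest in replicate 4, and they differed from each other by 0.05 ± 0.17 on the log2 scale, less than the spread between replicates. The third probe set stood at 0.565, 0.590, 0.606 and 0.7, below 1 on every array, although the annotation gives it the same source sequence as the first. The gap between the first and the third was 2.13 ± 0.45 on the log2 scale, or 4.39-fold.

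Of the serine synthesis genes, Phgdh stood above the reference and Psat1 nearer to it. Phgdh, the first enzyme of the pathway, had ratios of 1.26, 1.34, 1.46 and 1.60, all above 1 (mean log2 ratio 0.50 ± 0.15, SD, n = 4). Psat1, the aminotransferase that follows, had 1.32, 1.16, 1.01 and 1.13 (0.20 ± 0.16), with replicate 3 at the reference. Shmt2, which makes glycine from serine in mitochondria, had 0.740, 0.827, 1.002 and 0.980 (-0.18 ± 0.21). Its replicates 1, 2 and 4 lay below 1 and replicate 3 at the reference. On chip A these means stood at percentiles 91.6, 81.8 and 43.0 of all probe sets, whose median log2 ratio was -0.11.

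The glycine cleavage genes did not give 1 answer. Gldc encodes the glycine decarboxylase, and its chip A probe set had ratios of 2.21, 1.62, 2.53 and 2.29 in replicates 1 to 4 (mean log2 ratio 1.09 ± 0.28, SD, n = 4). A Gldc probe set on chip B lay at the reference with 1.16, 0.890, 0.954 and 1.01 (-0.003 ± 0.16), and the other at 0.390, 0.391, 0.408 and 0.407 (-1.33 ± 0.04). The first was above 1 in every replicate, the second on both sides of 1 and the last below 1 in every replicate. Amt encodes the aminomethyltransferase subunit and had 1 probe set, on chip B, with 0.830, 1.07, 1.17 and 0.984 (0.008 ± 0.21), on both sides of 1. The chips were normalized apart, and no probe set of the 10 genes was on both types.

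Cbs encodes cystathionine beta-synthase, the enzyme that commits homocysteine to transsulfuration. Its ratios were 3.88, 4.32, 4.90 and 5.12 (mean log2 ratio 2.18 ± 0.18, SD, n = 4), rank 66 on chip A. The replicates lay close together, the highest 1.32 times the lowest.

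Prodh encodes proline dehydrogenase, the first step of proline breakdown. One of its probe sets had ratios of 4.28, 5.46, 4.18 and 4.29 (mean log2 ratio 2.18 ± 0.18, SD, n = 4), rank 67 on chip A, with replicate 2 above the other 3. The other had 0.428, 0.460, 0.465 and 0.424 (-1.17 ± 0.07). The gap between the Prodh probe sets was 3.35 ± 0.16 on the log2 scale, or 10.2-fold. Among 1868 genes with several single-gene probe sets on chip A, whose highest and lowest differed by a median of 0.42, 6 had a gap of at least that size (0.321%), Prodh included.

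Aldh1l1 encodes the cytosolic formyltetrahydrofolate dehydrogenase. Its ratios were 7.53, 6.39, 6.31 and 3.34 (mean log2 ratio 2.50 ± 0.52, SD, n = 4), rank 35 on chip A. Replicate 4 was lower than the other 3, and every replicate was above 3. With any 1 replicate left out the mean ran from 2.36 to 2.75, against 2.91 to 2.99 for Slc7a10.

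**Figure D1:**
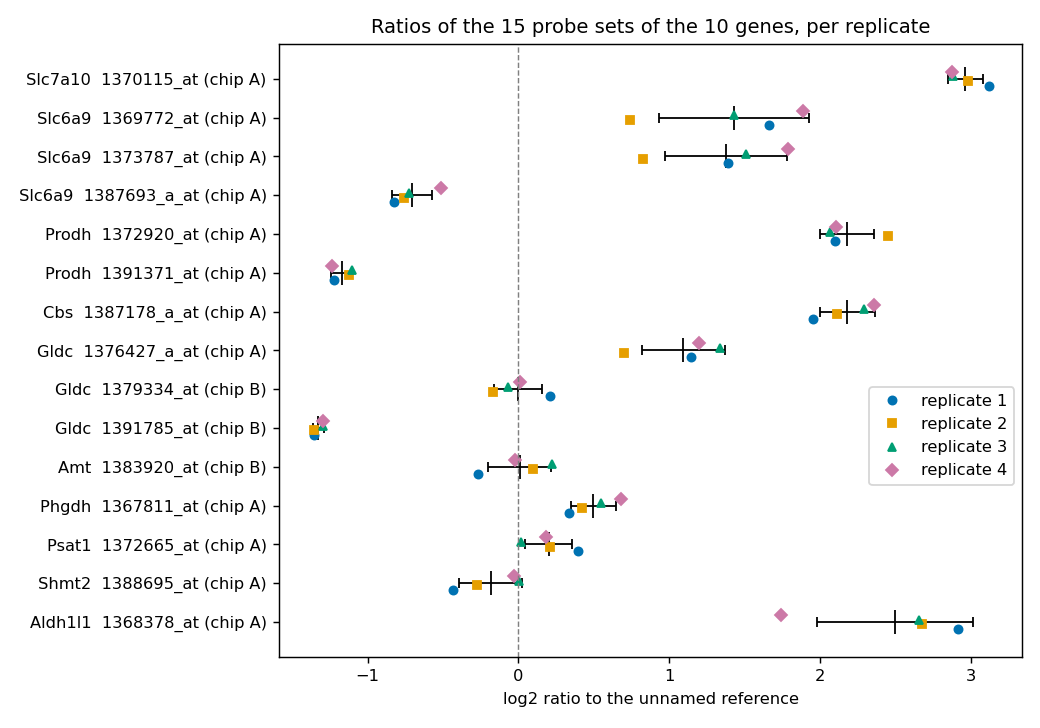
Log2 ratio to the unnamed reference (x axis) for each probe set of the 10 genes (rows), with a point per replicate and the mean ± SD of 4 arrays in black; the dashed line is a ratio of 1. Slc7a10, Aldh1l1, Cbs and the upper Prodh probe set have mean log2 ratios of 2.18 to 2.96, while the lower probe sets of Prodh and Gldc stand at -1.17 and -1.33.

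Taking each gene by its highest probe set, the ratios ran in the order Slc7a10, Aldh1l1, Cbs, Prodh, Slc6a9, Gldc, Phgdh, Psat1, Amt and Shmt2, all on chip A except Amt, which was read and normalized on chip B. Neighbours in this order overlapped between replicates except Prodh over Slc6a9 (lowest 4.18 against highest 3.70) and Gldc over Phgdh (1.62 against 1.60). The choice of the highest probe set raises genes that have several. Of the 12 probe sets on chip A 9 lay above a ratio of 1 on all 4 arrays and 2 below it, where 12.6% of all chip A probe sets lay above and 39.1% below. Of the 3 on chip B 0 lay above on all arrays and 1 below, against 7.76% and 36.8% of all. Since high ratios picked the group, nothing is read from these counts. The median of the 15 mean log2 ratios was 0.50, and over all probe sets it was -0.11.

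**Figure D2:**
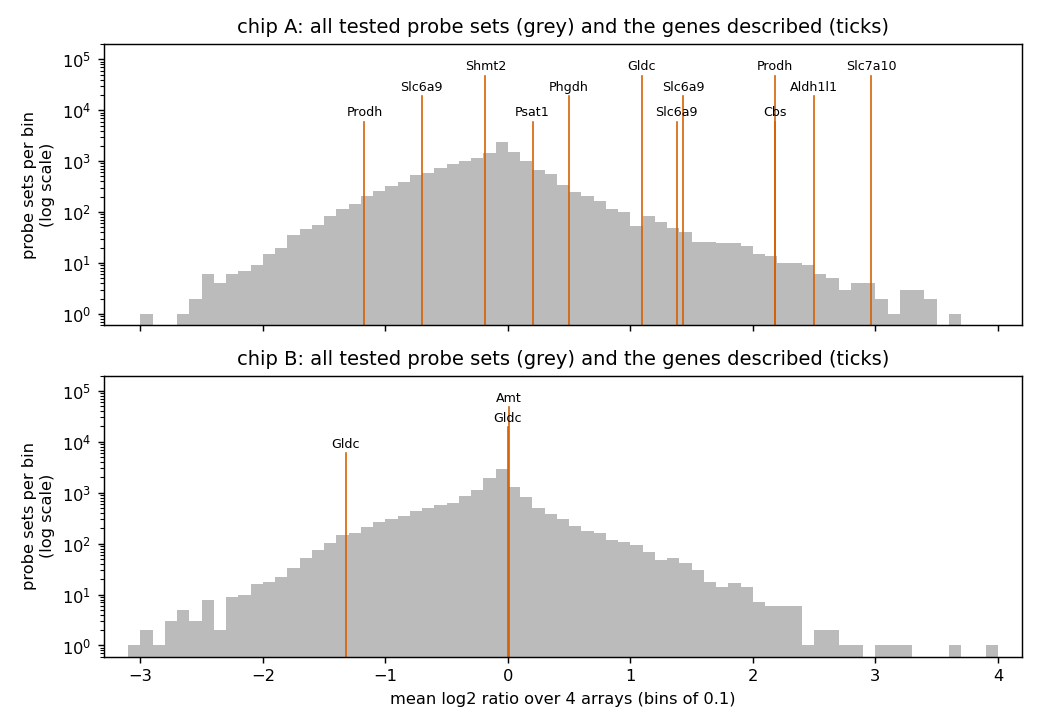
Number of tested probe sets per bin of mean log2 ratio (grey bars, log scale) on chip A and chip B, with vertical ticks at the probe sets of the 10 genes; tick heights only keep the names apart. Slc7a10 at 2.96, rank 14 of 15866, lies in the upper tail of chip A. Amt and a Gldc probe set sit near a ratio of 1 on chip B, at percentiles 71.2 and 70.0.

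Promoters are shown for Slc7a10, Aldh1l1 and Cbs, which were among the genes whose high ratios picked the group. That they stood high together is therefore not a result, and shared regulation was not tested. Promoter sequences came from RefSeq (build GRCr8) and matched 9 of the 10 genes, Prodh being the other. The 250 bases before the annotated start of Slc7a10, Aldh1l1 and Cbs read, 5′ to 3′ on the gene's strand, with GC boxes (GGGCGG, the motif of Sp family factors) and CCAAT boxes (CCAAT, the motif of NF-Y) in capitals on either strand:

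Slc7a10 (chr1:96965872-96966121, + strand): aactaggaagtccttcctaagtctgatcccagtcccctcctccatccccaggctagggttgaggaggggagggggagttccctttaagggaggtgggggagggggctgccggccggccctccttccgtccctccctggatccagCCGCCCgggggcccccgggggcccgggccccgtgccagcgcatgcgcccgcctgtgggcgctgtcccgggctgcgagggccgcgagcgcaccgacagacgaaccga

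Aldh1l1 (chr4:124616970-124617219, + strand): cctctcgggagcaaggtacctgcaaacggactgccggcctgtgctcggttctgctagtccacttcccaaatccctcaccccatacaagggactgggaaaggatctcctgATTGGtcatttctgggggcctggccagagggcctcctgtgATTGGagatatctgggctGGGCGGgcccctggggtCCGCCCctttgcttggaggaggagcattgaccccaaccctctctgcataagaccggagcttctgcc

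Cbs (chr20:9733926-9734175, - strand): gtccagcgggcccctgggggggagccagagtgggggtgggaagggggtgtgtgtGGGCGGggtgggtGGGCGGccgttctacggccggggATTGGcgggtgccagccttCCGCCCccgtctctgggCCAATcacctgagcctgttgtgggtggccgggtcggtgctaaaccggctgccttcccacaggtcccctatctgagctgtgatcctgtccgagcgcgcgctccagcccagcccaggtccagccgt

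The Slc7a10 window held 1 GC box and 0 CCAAT boxes, that of Aldh1l1 2 of each, and that of Cbs 3 GC boxes and 2 CCAAT boxes. Of all 33465 windows of this length 30.5% held a GC box and 34.0% a CCAAT box, and of the 9 windows of these genes 6 held a GC box and 6 a CCAAT box. The GC content was 72.4% for Slc7a10, 60.8% for Aldh1l1 and 71.2% for Cbs, and 38.8% for Phgdh, where the median of all windows was 51.2%. The element TGATGNAA, bound by ATF and C/EBP factors that act on amino acid genes, was in 0 of the 9 windows and in 3.40% of all. The short site TTGGCA of NFI factors, which can share its first letters with a CCAAT box on the other strand, was in 0 of the 9 and in 12.0% of all. Both strands were searched. A match describes letters only, and a missing match says only that these letters are not in this window.

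The low probe sets of Prodh and Gldc lay close to bacterial control probe sets on every array. On chip A the control AFFX-ThrX-3_at, which targets a Bacillus subtilis thr gene, had ratios of 0.427, 0.455, 0.460 and 0.420, and the low Prodh probe set was within 0.005 of it on every array. On chip B the control AFFX-r2-Bs-thr-M_s_at had 0.385, 0.396, 0.408 and 0.411, and the low Gldc probe set was likewise within 0.005. Of 57 controls on each type 3 lay under a ratio of 0.5 on all 4 arrays, all of them thr controls. A probe set was called parallel to these 3 when its log2 distance from their mean varied by an SD under 0.05 over the arrays, a limit chosen after the values were seen. On chip B each of these controls itself varied by a log2 SD of only 0.04. A chip B probe set with even ratios at any level thus also met the limit, here and in later paragraphs, without following the controls. By that measure 2 of the 3 low probe sets of the 10 genes were parallel and 0 of the other 12, and over all probe sets 43.1% of those lower than 1 were, against 6.64% of the rest. A small spread also favours a limma call, so these shares do not measure likeness to the controls alone. The low Slc6a9 probe set was not parallel (SD 0.17). Whether the low Prodh and Gldc probe sets detected their transcripts was not tested.

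**Figure D3:**
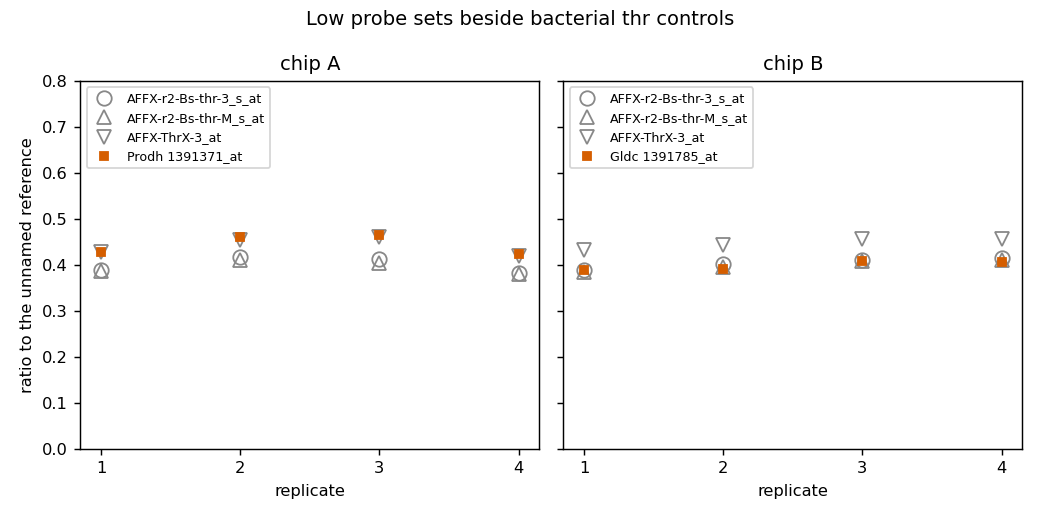
Ratio to the unnamed reference (y axis, from 0) on each replicate array for the low Prodh probe set on chip A and the low Gldc probe set on chip B (filled squares), with the 3 bacterial thr controls of that type (open symbols). Both genes' points lie within 0.005 of the nearest control, picked after the values were seen, on every array.

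Astrocyte and choroid plexus markers varied between replicates, and their part in the values of the 10 genes was not tested. The ratios of the 26 astrocyte marker probe sets on chip A summed to 88.1, 49.9, 82.7 and 51.6 in replicates 1 to 4, sums in which a few high ratios such as those of Aqp4 weigh most, and no marker had a ratio of 0 on any array. The median log2 ratio of the same probe sets was 0.99, 0.83, 1.12 and 0.91. Both high Slc6a9 probe sets and the chip A Gldc probe set were lowest in replicate 2, where the astrocyte sum and median were lowest too. In replicate 4, where that sum was nearly as low, both Slc6a9 probe sets were highest (3.70 and 3.44). Aldh1l1 was lowest in replicate 4 (3.34) and not in replicate 2 (6.39). Slc7a10 varied 1.18-fold, Prodh 1.31-fold and Cbs 1.32-fold over the same arrays, and Prodh was highest in replicate 2.

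Other genes of these pathways were taken from 5 lists with 82 genes, of which 74 were measured. Of these, 14 were higher than a ratio of 1 (limma, adjusted p under 0.05), 19 were lower and 41 were neither, so 18.9% were higher and 25.7% lower. Over all named genes the shares were 7.7% and 36.1%. The counts of each list in the next paragraphs are to be read beside these shares. By list, higher genes made up 0% to 31.25% and lower genes 16.7% to 45.5%, and in the folate list 16.7% and 33.3%. No list was tested against the shares of all genes. The median log2 ratio of the 92 probe sets was -0.10, against -0.11 for all. Of the 20 lower probe sets 11 were parallel to the bacterial controls (55%), where over all lower probe sets 43.1% were. Without replicate 4 the number of higher genes fell to 8, and it was 10 to 12 without any other replicate.

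The gene next to Cbs in transsulfuration stood highest. Cth, which encodes cystathionine gamma-lyase and makes cysteine from the product of Cbs, had ratios of 5.51, 2.45, 4.74 and 8.73 in replicates 1 to 4 (mean log2 ratio 2.28 ± 0.76, SD, n = 4, limma adjusted p = 0.00252). It was lowest in replicate 2 and highest in replicate 4, as both high Slc6a9 probe sets were. Tst, which encodes the mitochondrial sulfurtransferase rhodanese, had 2.83, 2.58, 2.18 and 2.35 (1.30 ± 0.16, adjusted p = 0.000226). In the methionine and transsulfuration list 5 of 23 measured genes were higher and 4 lower. Mat2a, which makes the methyl donor S-adenosylmethionine, was higher by 1 of its 3 probe sets (0.53 ± 0.05, limma adjusted p = 0.00178), and the other pair did not pass (-0.03 and -0.06). The lowest were Ahcyl2, a relative of S-adenosylhomocysteine hydrolase, at -0.999 ± 0.06, Bhmt2, a homocysteine methyltransferase gene, at -0.90 ± 0.06 and Dmgdh, dimethylglycine dehydrogenase, at -0.69 ± 0.09, with limma adjusted p of 0.000133, 0.000175 and 0.000912. All 3 probe sets were parallel to the bacterial controls, and the other Ahcyl2 probe set did not pass (-0.15 ± 0.27).

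Of 18 measured genes of the folate list 3 were higher and 6 lower. Folh1, which encodes the folate hydrolase that also cleaves N-acetylaspartylglutamate, had ratios of 4.66, 3.18, 4.42 and 3.85 (mean log2 ratio 1.99 ± 0.25, SD, n = 4, limma adjusted p = 0.000145), high on all arrays, and its other probe set stood at 0.74 ± 0.66 without passing (adjusted p = 0.072). The reduced folate carrier gene Slc19a1 stood at 0.66 ± 0.32 (adjusted p = 0.0139), and without replicate 3 it did not pass (0.63, adjusted p = 0.0525). The folate receptor gene Folr1, a choroid plexus gene as well, had ratios of 1.35, 3.63, 1.49 and 1.999 (0.97 ± 0.64, limma adjusted p = 0.03), highest in replicate 2. Its call was lost without replicate 3 (1.10, adjusted p = 0.0515) and without replicate 4 (0.96, adjusted p = 0.0924). The other 5 ependyma and choroid plexus probe sets summed to ratios of 9.58, 17.8, 5.74 and 10.97, also highest in replicate 2. That peak came from 1 Aqp1 probe set (5.013, 12.42, 1.752 and 5.635), and without it the sums were 4.57, 5.37, 3.99 and 5.34, with replicates 2 and 4 alike. The part of such cells in the Folr1 value was not tested. The lowest were Mthfs, which recycles 5-formyl folate, at -0.89 ± 0.05, the folate receptor gene Folr2 at -0.83 ± 0.10 and Ftcd, a folate enzyme of histidine breakdown, at -0.67 ± 0.07, with limma adjusted p of 0.000181, 0.000547 and 0.000901. The other pair of Mthfs probe sets did not pass (-0.83 ± 0.59 and -0.84 ± 0.71). The lowest Mthfs probe set and Ftcd were parallel to the bacterial controls and Folr2 was not. Aldh1l2, the mitochondrial relative of Aldh1l1, stood at -0.06 ± 0.22 and did not pass (limma adjusted p = 0.679).

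Amino acid transporter genes went both ways, with 5 of 16 measured genes higher and 3 lower. Slc1a4, which encodes the serine and alanine transporter ASCT1, had ratios of 1.64, 1.55, 2.34 and 2.19 (mean log2 ratio 0.92 ± 0.30, SD, n = 4, limma adjusted p = 0.00555). The glutamine transporter genes Slc38a3 at 0.64 ± 0.38 (adjusted p = 0.025) and Slc38a1 at 0.57 ± 0.41 (0.0449) were higher too. The Slc38a3 call was lost without replicate 4 (0.61, adjusted p = 0.0865). The Slc38a1 probe set did not pass without replicate 1, 3 or 4 (0.47, 0.52 and 0.52, adjusted p = 0.132, 0.133 and 0.138) or with a trended, robust prior (adjusted p = 0.0596). Of the other Slc38a1 probe sets 1 passed (0.41 ± 0.18, adjusted p = 0.0175) and 1 did not (-0.06 ± 0.35). The neuronal glycine transporter gene Slc6a5, which encodes GLYT2, stood lowest at -1.06 ± 0.05 (limma adjusted p = 0.000168), with ratios of 0.465, 0.493, 0.497 and 0.468. The proton-coupled transporter gene Slc36a1 at -0.75 ± 0.08 and the neutral amino acid transporter gene Slc38a4 at -0.48 ± 0.10 were lower as well (limma adjusted p = 0.000624 and 0.00433). Slc6a5 and Slc38a4 were parallel to the bacterial controls and Slc36a1 was not.

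Serine and glycine enzymes outside the group had 0 of 11 measured genes higher by limma (0 at an unadjusted p under 0.05) and 5 lower. Psph, the last step of serine synthesis, stood at -0.12 ± 0.22 (limma adjusted p = 0.398) and Gcsh, the carrier protein of glycine cleavage, at -0.11 ± 0.13 (0.315), so neither passed. Shmt1, the cytosolic partner of Shmt2, had ratios of 1.02, 0.545, 0.559 and 0.454 (-0.71 ± 0.51, limma adjusted p = 0.0403), with replicate 1 apart at the reference. Its call was lost without replicate 2, 3 or 4 (-0.65, -0.66 and -0.56, adjusted p = 0.102, 0.12 and 0.125) and with the arrays centred on their median (-0.59, adjusted p = 0.0991). Sds, a serine dehydratase of liver, stood at -1.12 ± 0.07, the glycine methyltransferase gene Gnmt at -0.77 ± 0.05 and Gatm, an enzyme of creatine synthesis, at -0.55 ± 0.02, with limma adjusted p of 0.000163, 0.000452 and 0.000591, and all 3 were parallel to the bacterial controls. The other Gatm probe set did not pass (-0.42 ± 0.39, adjusted p = 0.0895). Dao, which degrades D-serine, stood at -0.29 ± 0.09 (limma adjusted p = 0.0245), a call lost without replicate 1, 2 or 4 (-0.27, -0.29 and -0.26, adjusted p = 0.0931, 0.0757 and 0.0914) and with centred arrays (-0.17, 0.0604).

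Of 6 measured proline and ornithine genes 1 was higher and 1 lower. Aldh4a1, which follows Prodh in proline breakdown, had ratios of 1.203, 1.201, 1.16 and 1.56 (mean log2 ratio 0.35 ± 0.20, SD, n = 4, limma adjusted p = 0.0368). That call was lost with any 1 replicate left out (0.37, 0.37, 0.39 and 0.25 without replicates 1 to 4, adjusted p = 0.0821, 0.0732, 0.0616 and 0.0808) and with a trended, robust prior (0.0795). On the synthesis side Pycr3, a pyrroline carboxylate reductase gene, was lower by 1 of its probe sets (-0.64 ± 0.24, limma adjusted p = 0.0109), though not without replicate 4 (-0.61, adjusted p = 0.0508), and its other probe set did not pass (-0.27 ± 0.22). Pycr1 at -0.32 ± 0.36 and Aldh18a1, the first enzyme of proline synthesis, at -0.27 ± 0.42 did not pass (limma adjusted p = 0.19 and 0.277).

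**Figure D4:**
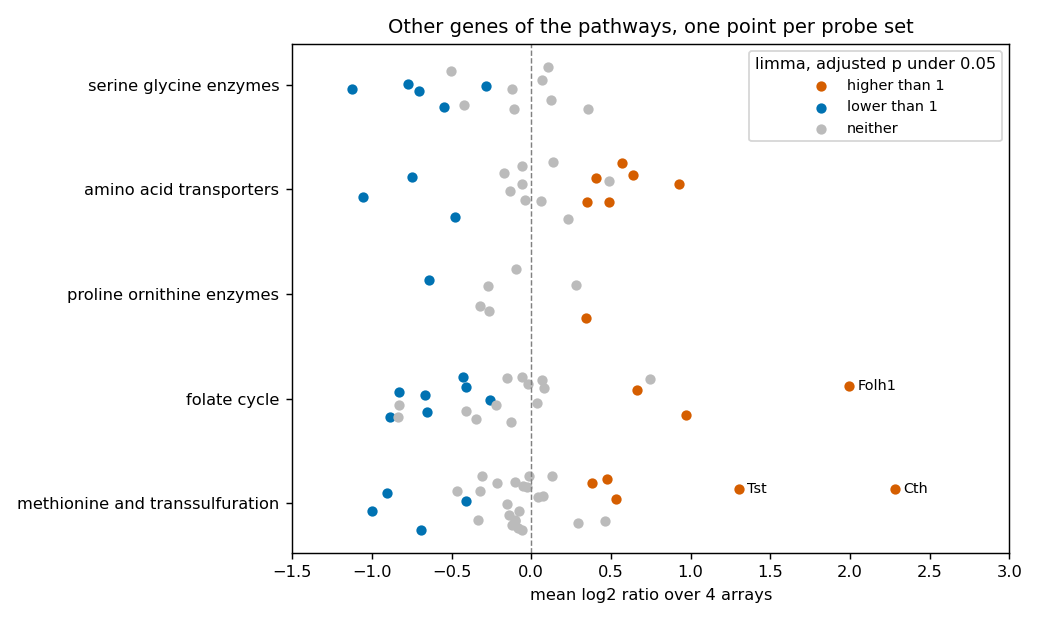
Mean log2 ratio over 4 arrays (x axis) for every probe set of the other pathway genes in 5 lists (rows, with vertical jitter), coloured by the limma call against a ratio of 1; names are given above a mean log2 ratio of 1. Cth at 2.28, Folh1 at 1.99 and Tst at 1.30 stand apart at the right.

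The genes whose ratios were most like those of the 4 high genes were found by the distance between log2 ratios over the 4 chip A arrays, among probe sets named by 1 gene. Nearest to Slc7a10 were Agt (angiotensinogen) at a distance of 0.345, the potassium channel gene Kcnd3 at 0.650 and Cyp4f1, a cytochrome P450 gene, at 0.656. Nearest to the high Prodh probe set were the transcription factor gene Klf15 at 0.365, Itih3 at 0.479 and the semaphorin receptor gene Plxnb1 at 0.483. Klf15 was also nearest to Cbs, at 0.428, followed by the growth factor gene Vegfa at 0.441 and the calcium channel gene Cacna1h at 0.457. Nearest to Aldh1l1 were the adhesion gene Nrcam at 0.499, the glutamate receptor gene Grm3 at 0.513 and the peroxisomal transporter gene Abcd2 at 0.645. Within a distance of 1 lay 9 other probe sets for Slc7a10 and 8 for Aldh1l1, against 42 for Prodh and 52 for Cbs. The distance includes the height of the ratios, so these counts also reflect how many probe sets stood as high. Slc7a10 and Aldh1l1 ranked 14 and 35 on chip A, in a sparser part of the tail than Cbs and Prodh at 66 and 67. The distances describe 4 arrays of cells sorted by the same markers, each set against an unnamed reference.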

How the data were processed

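The authors deposited, for each probe set, a linear ratio to an unnamed reference, processed with RMA (no version) per the submitters' processing notes. Ratios were put on the log2 scale, and 57 control probe sets per array type were left out. Chip A kept 15866 probe sets, of which 12783 had 1 gene symbol, and chip B kept 15276, with 7564. A ratio of exactly 1 was held by 21, 62, 51 and 33 probe sets on chip A (replicates 1 to 4). On chip B it was held by 543, 617, 1244 and 1163. The origin of these values was not tested. Symbols came from the platform annotation, updated through the RefSeq gene table (GRCr8), which changed 0 symbols. Two-sided limma tests (version 3.58.1 in R 4.3.3, intercept only, eBayes) asked whether a probe set differed from a ratio of 1, with Benjamini-Hochberg adjustment over each array type at 0.05. 1 called probe set sufficed to call its gene, and genes with calls in both directions were counted apart. The test was tried on simulated ratios with the real spreads, where on chip A 98% of probe sets 4 times the reference (log2 of 2) and 68% of those with a log2 of 1 were recovered. For a log2 of -2 and -1 the shares were 94% and 72%. On chip B they were 94% and 72% upward and 88% and 78% downward. False calls numbered 8 on chip A and 11 on chip B. All unchanged probe sets were simulated around a ratio of 1, whereas the real median log2 ratio was -0.11, so these shares need not hold for the real data.

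Alternatives were arrays centred on their median, a trended, robust prior, each replicate left out, probe sets with a value of exactly 1 left out, and the median probe set of a gene. The number of arrays limits the precision. The replicates are biological per the labels, and p-values concern their spread only. In each pathway list the 3 highest and 3 lowest genes past the test were named, or all where 6 or fewer passed. Others named beside them, such as Aldh1l2, Psph, Gcsh, Pycr1 and Aldh18a1, were chosen after their values were seen. The 10 genes and the lists were chosen with earlier results of these data known.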

Additional observations from a re-analysis of the deposited data

Results flagged for a closer look

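Of 40 probe sets examined, those of the 10 genes and of the named pathway genes, 3 had 1 array far from the other 3 by Dixon's criterion, which chance alone meets in about 1 of 20 groups. The high Prodh probe set stood at a ratio of 5.46 in replicate 2, above the other replicates. Slc36a1 stood at 0.552 in replicate 1, below the others. Aldh4a1 stood at 1.56 in replicate 4, above the others.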

How the results depend on the processing

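No paired analysis was possible because the series has 1 cell population, and its array types, which share replicate numbers, share 100 probe sets, none of them of the 10 genes, and were not compared. With arrays centred on their median, 3 of the 15 means of the 10 genes moved by more than 1 SD: Slc7a10 to 3.08, the low Prodh probe set to -1.05 and the low Gldc probe set to -1.22. Without 1 replicate the number of higher pathway genes ran from 8 to 12, against 14 with all. The other counts stayed within 1.5 times their values under each alternative that was run. Centring moved the share of higher among all chip A calls from 23.5% to 33.7%, and on chip B from 15.8% to 19.3%. Ratios carry no signal over background, so detection cannot be judged from them.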
